A study of Mus musculus with 13 samples.

Results

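The genes described here are 40 genes of homologous recombination and of the Fanconi anemia pathway, taken by symbol from a table of 53465 mouse genes, and all 40 were found. They were measured by polyA RNA sequencing of bulk tissue in 13 libraries, 3 from WT ovaries and 10 from MP EPO-GEMM tumors. WT ovaries were untreated ovaries of wild-type C57BL/6 mice, whose samples carry the same label of females of 8 to 12 weeks as the tumors, with no age of their own. MP tumors arose in wild-type C57BL/6 females of 8 to 12 weeks whose ovary had been injected and electroporated with plasmids for Cas9 with an sgRNA against Trp53, for a MYC transposon and for the Sleeping Beauty transposase, and the tumor-bearing mice were otherwise untreated. No guide against a recombination gene was part of the MP combination, so these tumors were recombination proficient by design. Electroporation reaches every cell type between the electrodes, with no promoter or Cre restricting it to 1 cell type, and the RNA came from whole tumor tissue, stroma included.

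Homologous recombination copies an intact sister chromatid to repair a broken one. The MRN complex and its partners resect the break, BRCA1 with BARD1 and PALB2 brings BRCA2 to the resected end, strands are exchanged, and helicases and nucleases resolve the joint molecules. The Fanconi anemia pathway opens cross-linked DNA, with a core complex that ubiquitinates the FANCI-FANCD2 pair and hands the break to recombination. Both work mainly while DNA is being copied. In the ovary they also matter to oocytes, and loss of BRCA1 or BRCA2 predisposes to high-grade serous ovarian cancer.

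Values are TPM, a length-corrected share of each library's reads, in which a gene's reads are divided by its length and each library is brought to the same total, so levels can be set between genes but a gene falls when others take more of the total. A second scale, median-of-ratios scaled TPM, divides each library by the median ratio of its genes to their mean over libraries. Both are given because the libraries stand apart in composition. The WT ovaries held 31445004 to 64013840 reads and the MP tumors 3892690 to 19906507. In MP tumor 2 the 10 most abundant genes took 55.1% of TPM, against at most 20.6% elsewhere. On the deposited scale the median of all 17277 genes tested was 0.58 lower in MP tumors (log2), and after scaling it was 0.02 lower. Trp53 RNA, the guide's target, stood at 80.7 to 85.4 TPM in WT ovaries and below every WT ovary in 9 of the 10 tumors, whereas the library labelled MP tumor 10 had 187 TPM. Mouse Myc RNA stood at 126 to 129 TPM in WT ovaries and 7.09 to 419 in tumors, 6 of them below every ovary and 4 above, and whether reads of the transposon's MYC were counted under this gene is not given in the sources used here. These are RNA levels, and the editing itself was not measured here. Markers of the ovary's own cells were lower in the tumors. The 5 luteal and theca markers summed to 25024 to 28130 TPM in WT ovaries and 7.44 to 824 in tumors, the 5 granulosa markers to 3225 to 5990 and 4.46 to 1507, the 8 oocyte markers to 297 to 441 and 1.83 to 23.6, and the 4 endothelial markers to 235 to 249 and 4.02 to 177. Fibroblast markers varied from 82.9 to 3722 TPM between tumors, against 1104 to 1782 in ovaries. The part of these cells in the members' values was not tested. Epithelial markers varied from 8.09 to 1199 TPM between tumors. The keratin Krt8 ranged from 0.590 to 425 TPM in tumors, against 60.7 to 68.0 in ovaries, and Krt19 was listed at 0 in 3 tumors and reached 205 TPM in MP tumor 4, so epithelial markers were not uniform between tumors. In bulk RNA, fewer cells of a type and less RNA per cell cannot be told apart.

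All 40 genes were expressed in both tissues. Every member had reads in every library, with 142 to 11494 reads in WT ovaries and 9 to 10738 in MP tumors, and 36 members had at least 1 TPM everywhere. The 4 that did not were Rad51c, Fanca, Slx4 and Polq. By TPM, Parp1, the poly(ADP-ribose) polymerase that senses strand breaks, was the most abundant, at 125 ± 12.1 TPM in WT ovaries (SD, n = 3) and 266 ± 146 in MP tumors (SD, n = 10). At the other end stood Polq, the polymerase of microhomology-mediated end joining, in WT ovaries (2.13 ± 0.643 TPM, SD, n = 3, and 6.64 ± 6.19 in MP tumors, SD, n = 10), and Rad51c in MP tumors, with a median of 2.38 TPM.

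**Figure D1:**
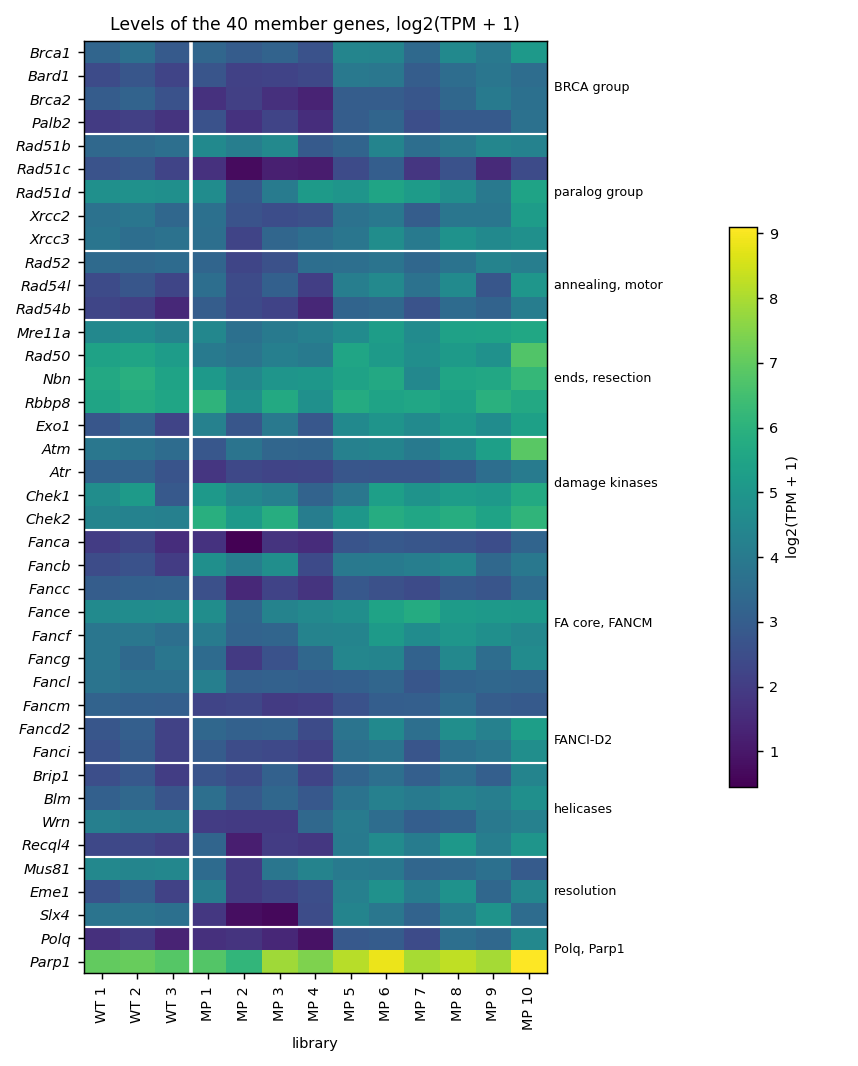
Level of each member as log2(TPM + 1), with 1 row per gene grouped by role and 1 column per library. The WT ovaries stand left of the white line and the MP tumors right of it, and the 3 columns MP 2, MP 3 and MP 4 are the darker ones in most rows.

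Members ranked higher within the tumor libraries than within the ovary libraries. The median member stood at the 38.3 to 41.0 percentile of all genes tested in the WT ovaries and at the 42.0 to 63.8 percentile in the MP tumors, and all 10 tumors lay above every ovary. This rank does not move with the scaling. The lowest tumor was MP 4 (42.0) and the next MP 9 (49.7). After scaling, the share of members above every WT ovary was 40% in MP tumor 4, where 43.7% of all genes tested were, and reached 90% in MP tumors 3 and 8, where 43.4% and 42.8% of all genes were. This share does move with the scaling. As deposited it was 22.5% in MP tumor 3, against 20.6% of all genes, 12.5% in MP tumor 2, against 11.6%, and 10% in MP tumor 4, against 25%, while in the other 7 tumors it ran from 37.5% to 85% and lay above the share of all genes in each.

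**Figure D2:**
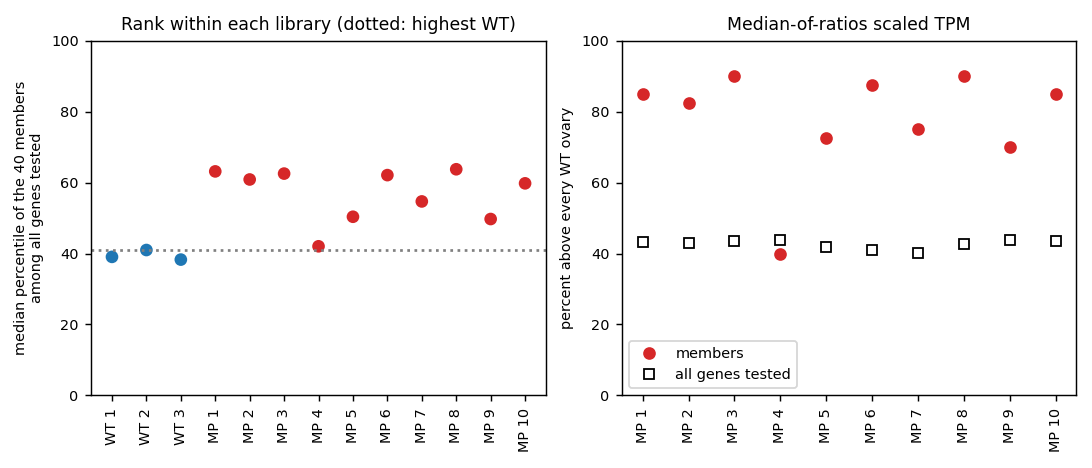
Left, the percentile of the median member among all genes tested in each library, with the highest WT ovary as a dotted line. Right, for each MP tumor, the percent of members above all 3 WT ovaries (filled) beside the same percent for all genes tested (open), on median-of-ratios scaled TPM. MP 4 is the tumor in which the members fall to the share of all genes.

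The promoters of the members are shown next, because many recombination genes are known targets of the E2F factors that switch on genes of DNA synthesis. In RefSeq windows of 300 bases (250 before the start and 50 after, GRCm38.p6), 30 of the 40 members had a sequence. The 10 without one were Rad51d, Xrcc2, Rad54b, Rad50, Nbn, Rbbp8, Exo1, Fancd2, Wrn and Recql4. An E2F word (TTTCCCGC, TTTGGCGC, TTTCGCGC or TTTGCCGC, on either strand) stood in the window of 5 of the 30 (16.7%): Bard1, Brca2, Rad51c, Chek2 and Fancg. It stood in 2.6% of all 27025 genes with a window. The cell-cycle word TTTGAA was in 4 members (13.3%, against 20.2% of genes) and CCAAT in 17 (56.7%, against 41.1%). A match is only a run of letters, and no binding was measured. The windows of 3 members with an E2F word are given with that word in capitals, and those of Fancb and Brca1, which hold none, with CCAAT in capitals.
Bard1 (chr1:71102923-71103222, minus strand): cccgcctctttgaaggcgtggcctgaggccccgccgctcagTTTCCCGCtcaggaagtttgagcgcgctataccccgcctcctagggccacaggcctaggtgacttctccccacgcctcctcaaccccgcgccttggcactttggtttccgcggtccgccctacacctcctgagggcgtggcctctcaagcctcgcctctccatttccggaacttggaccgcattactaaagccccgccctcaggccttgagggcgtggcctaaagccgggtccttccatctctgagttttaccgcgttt
Brca2 (chr5:150522371-150522670, plus strand): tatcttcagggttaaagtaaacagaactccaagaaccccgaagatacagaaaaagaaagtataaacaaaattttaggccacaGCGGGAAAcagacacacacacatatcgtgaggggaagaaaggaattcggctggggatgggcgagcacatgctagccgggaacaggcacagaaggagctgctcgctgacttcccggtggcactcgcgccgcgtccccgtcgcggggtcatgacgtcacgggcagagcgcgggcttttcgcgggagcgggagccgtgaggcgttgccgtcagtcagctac
Chek2 (chr5:110839733-110840032, plus strand): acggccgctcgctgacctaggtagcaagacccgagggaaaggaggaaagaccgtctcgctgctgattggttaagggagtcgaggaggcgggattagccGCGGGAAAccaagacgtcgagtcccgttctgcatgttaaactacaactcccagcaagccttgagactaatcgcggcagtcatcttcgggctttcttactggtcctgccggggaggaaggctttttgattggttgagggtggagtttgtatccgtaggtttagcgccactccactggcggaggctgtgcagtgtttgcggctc
Fancb (chrX:164980342-164980641, plus strand): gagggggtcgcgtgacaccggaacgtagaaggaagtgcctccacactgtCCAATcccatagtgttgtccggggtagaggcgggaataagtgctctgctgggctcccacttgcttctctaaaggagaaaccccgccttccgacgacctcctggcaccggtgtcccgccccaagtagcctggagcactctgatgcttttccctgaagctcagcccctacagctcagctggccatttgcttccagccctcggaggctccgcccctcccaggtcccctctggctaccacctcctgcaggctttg
Brca1 (chr11:101551906-101552205, minus strand): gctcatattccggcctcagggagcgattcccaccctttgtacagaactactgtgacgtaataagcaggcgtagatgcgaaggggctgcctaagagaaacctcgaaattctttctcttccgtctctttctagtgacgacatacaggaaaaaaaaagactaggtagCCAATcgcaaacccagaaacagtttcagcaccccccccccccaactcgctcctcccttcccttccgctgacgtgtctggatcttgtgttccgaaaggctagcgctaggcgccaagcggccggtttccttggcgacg
Of the 5 members with an E2F word, Bard1 and Chek2 passed the test below after scaling, and Brca2, Rad51c and Fancg did not.

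The comparison of 10 MP tumors with 3 WT ovaries was fitted with limma on log2(TPM + 1) for all 17277 genes, with Benjamini-Hochberg adjustment over all of them. As deposited, 1 of the 40 members passed adjusted P below 0.05, Fancb, which was higher in tumors. Of all genes tested, 2.51% passed as higher and 14.3% as lower (433 and 2463 genes), and no member passed as lower with limma, although Mus81 had an unadjusted P under 0.05. The median member change was 0.38 on the log2 scale, against -0.58 for all genes. After scaling, 22 members were higher and 0 lower at unadjusted P under 0.05, a threshold for which no share of all genes is given here. At adjusted P below 0.05, 18 members passed as higher and none as lower after scaling. The shares over all genes at that adjusted threshold were 7.39% higher and 11% lower (1276 and 1896 genes). The median member change after scaling was 1.04 against -0.02. Without MP tumor 2 the scaled count was 17, against 6.81% of all genes, and without MP tumor 10 it was 16, against 8.33%. The deposited counts were then 3 (Chek2, Exo1 and Fancb), against 3.68% of all genes, and 1 (Fancb), against 2.71%. On reads worked back from TPM, limma-voom called 11 members higher and 0 lower, with 10.9% and 23.4% of all genes, and Wrn had an unadjusted P under 0.05 for a lower value.

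The group values did not overlap for few members as deposited. No member had all 10 tumors above all 3 ovaries, a pattern that 3.02% of all genes tested show, and 1 member, Mus81, had all 10 below, which 16.4% of genes show. After scaling, 13 members (32.5%) had every tumor above every ovary, against 9.45% of all genes, and no member had every tumor below, against 10.7%. With 9 tumors enough, 23 members (57.5%) lay above every ovary, against 16.7% of all genes, and none below, against 19.8%. As deposited, 3 members (7.5%) had 9 or more tumors above, against 6.67% of all genes, and 3 (7.5%) below, against 30.3%. The 13 were Bard1, Xrcc3, Rad52, Mre11a, Exo1, Chek2, Fancb, Fance, Fancf, Blm, Recql4, Eme1 and Parp1.

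**Figure D3:**
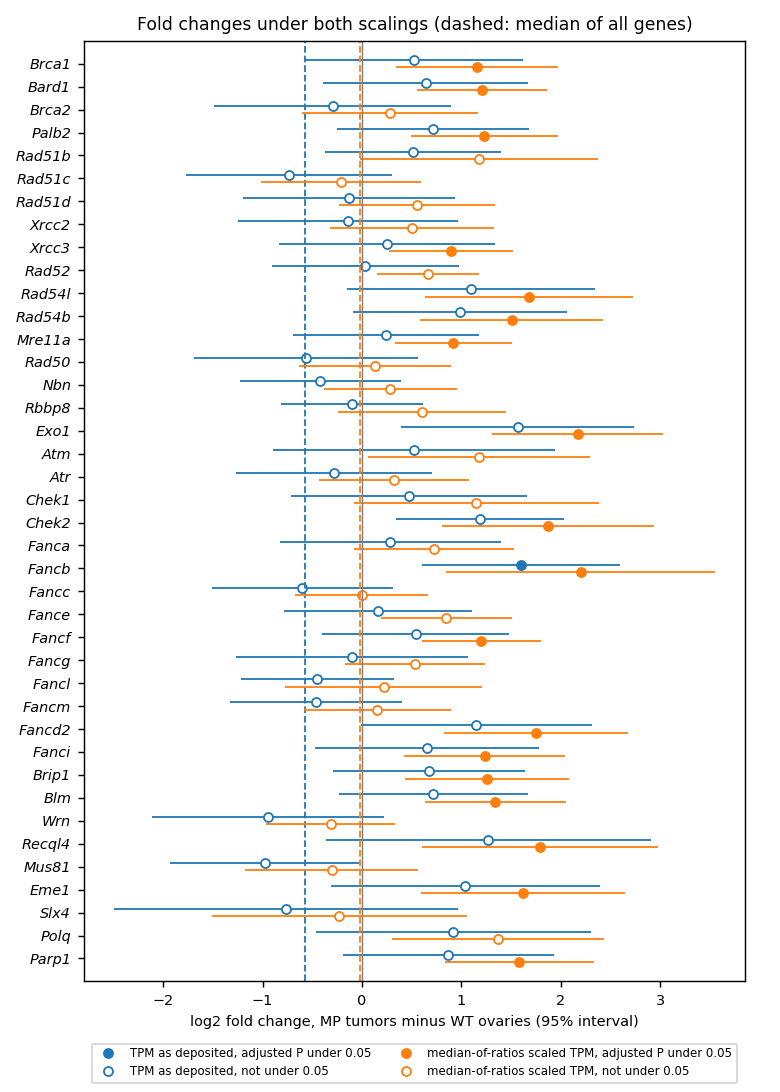
log2 fold change of each member, MP tumors minus WT ovaries, with its 95% interval from limma, on TPM as deposited (blue) and after median-of-ratios scaling (orange). Filled points passed adjusted P below 0.05 over all genes tested, the dashed lines are the medians of all genes (-0.58 and -0.02), and the orange points lie to the right of the blue ones.

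The libraries also carry an IGO number in their label. The 3 WT ovaries and MP tumors 1 to 3 share 1 number, MP tumors 4 to 6 have another and MP tumors 7 to 10 a further one, so the tissues can be compared within the ovaries' number alone. There, as deposited, 3 members passed as higher (Chek2, Fancb and Rad51b) and 10 as lower (Rad51c, Rad50, Fancc, Mus81, Nbn, Wrn, Atr, Slx4, Brca2 and Fancm), against 6.44% and 57.3% of all genes, whose median was -1.19. After scaling, 25 members passed as higher and 2 as lower (Wrn and Slx4) in these 6 libraries, against 25.8% and 33% of all genes, so here the members' share as lower was below that of all genes on both scales.

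The BRCA group acts on resected ends. Brca1 stood at 8.59, 11.6 and 6.39 TPM in WT ovaries 1 to 3. In MP tumors 1 to 10 it stood at 8.98, 6.88, 8.31, 5.17, 19.9, 19.2, 9.53, 22.5, 14.6 and 34.1 TPM. The groups overlap, with 5 tumors above every ovary and 1 below. Bard1, its obligate partner, stood at 4.33, 5.79 and 3.70 TPM in ovaries and at 5.63, 3.37, 3.53, 4.05, 14.2, 13.7, 7.0, 10.5, 13.4 and 10.7 in tumors. On this scale both were low in MP tumors 1 to 4 and high in 5, 6 and 8 to 10. After scaling, MP tumors 1 to 3 stood at 14.3, 21.6 and 16.6 for Brca1, above the highest ovary (7.95), and MP tumor 4 alone did not, at 5.58. Scaled Bard1 lay between 4.37, in MP tumor 4, and 12.4 in the tumors and reached 3.97 in the ovaries. Palb2, the bridge between BRCA1 and BRCA2, stood at 2.90, 3.25 and 2.35 TPM in ovaries and at 5.15, 2.28, 3.73, 2.03, 7.0, 8.76, 4.72, 6.54, 6.51 and 11.8 in tumors. It was above every ovary in 8 tumors and below in MP 2 and MP 4. Brca2, the partner of Palb2, stood at 6.89, 8.25 and 5.20 TPM in ovaries and at 2.18, 3.22, 2.14, 1.51, 6.95, 6.92, 5.81, 9.22, 14.8 and 11.5 in tumors. On this scale its tumors fell on both sides, 3 above every ovary and 4 below, the latter being MP 1 to MP 4. After scaling, 6 were above and 2 below, and MP 2 became the highest, at 10.1 against at most 5.65 in the ovaries.

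On TPM none of the 4 passed over all 13 libraries. The log2 change was 0.52 for Brca1 (SE 0.51, limma adjusted P = 0.481), 0.64 for Bard1 (SE 0.49, limma adjusted P = 0.362), 0.72 for Palb2 (SE 0.46, limma adjusted P = 0.277) and -0.30 for Brca2 (SE 0.56, limma adjusted P = 0.725). The 95% intervals ran from -0.57 to 1.62 for Brca1 and from -1.49 to 0.90 for Brca2, so a change of either sign lies within both. After scaling, Brca1, Bard1 and Palb2 passed (1.16, 1.21 and 1.23, limma adjusted P = 0.0469, 0.0143 and 0.024) and Brca2 did not (0.28, limma adjusted P = 0.65). The scaled call of Brca1 was lost without MP tumor 2 (limma adjusted P = 0.0637) and without MP tumor 10 (limma adjusted P = 0.0556), with changes of 1.11 and 1.07. Within the ovaries' IGO number the deposited change was -0.09 for Brca1 and -0.12 for Bard1, and scaled it was 1.31 and 1.14. In the same 6 libraries Brca2 passed as lower as deposited, at -1.14 (limma adjusted P = 0.0056) beside -1.19 for the median gene, and its scaled change was 0.13 (limma adjusted P = 0.773).

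**Figure D4:**
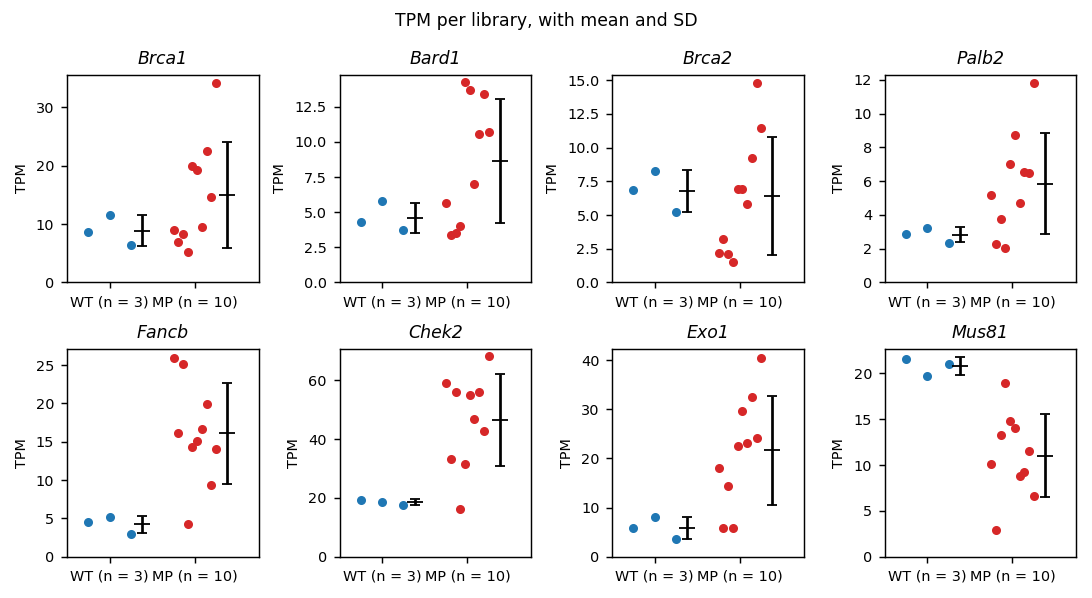
TPM of 8 members, with each point a library and the bar its mean with SD, for WT ovaries (blue, n = 3) and MP tumors (red, n = 10). Fancb and Chek2 have 9 of 10 tumors above every ovary, Mus81 has all 10 below on this scale but not after scaling, and Brca2 has tumors on both sides.

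Fancb belongs to the core complex of the Fanconi anemia pathway and is on chromosome X. It stood at 4.54, 5.17 and 3.01 TPM in WT ovaries and at 26.0, 16.2, 25.2, 4.22, 14.3, 15.1, 16.6, 19.9, 9.33 and 14.0 TPM in MP tumors 1 to 10. All tumors but MP 4 were above every ovary. The log2 change was 1.6 (SE 0.47, 95% interval 0.61 to 2.60, limma adjusted P = 0.0292), and 2.20 after scaling (limma adjusted P = 0.0269). Without any 1 of the 3 WT ovaries the deposited call was lost, with limma adjusted P from 0.0845 to 0.157, while the log2 change stayed between 1.42 and 1.73.

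Chek2, a checkpoint kinase downstream of ATM, stood at 19.5, 18.6 and 17.7 TPM in ovaries and at 59.1, 33.3, 55.9, 16.2, 31.6, 55.2, 46.9, 56.1, 42.9 and 68.1 in tumors. Again MP 4 alone was not above every ovary. Its log2 change was 1.19 (SE 0.40, limma adjusted P = 0.0518), just outside the threshold, and 1.87 after scaling (limma adjusted P = 0.0183). Leaving out MP tumor 2, 4 or 5 brought the deposited value inside it, with limma adjusted P = 0.0405, 0.0125 and 0.0433.

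Exo1, the exonuclease that extends resection, stood at 5.86, 8.12 and 3.66 TPM in ovaries and at 18.0, 5.83, 14.5, 5.92, 22.6, 29.6, 23.1, 32.4, 24.2 and 40.5 in tumors. Its 8 high tumors are all but MP 2 and MP 4. The log2 change was 1.57 (SE 0.55, limma adjusted P = 0.0632), and 2.17 after scaling (limma adjusted P = 0.00204). Without MP 2 or without MP 4 the deposited value passed (limma adjusted P = 0.0244 and 0.0309).

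Mus81, a nuclease that cuts joint molecules with Eme1, stood at 21.6, 19.7 and 21.1 TPM in ovaries and at 10.1, 2.88, 13.2, 18.9, 14.8, 14.0, 8.79, 9.25, 11.5 and 6.67 in tumors. All 10 tumors were below every ovary as deposited, and after scaling 7 were below and 3 above. The log2 change was -0.97 (SE 0.45, limma adjusted P = 0.147), and -0.30 after scaling (limma adjusted P = 0.621). Mus81 exons overlap Efemp2 on the other strand. In all, 19 members share an exon with a gene on the opposite strand, 10 of them among the 18 that passed after scaling, and since strand-specific counting is not stated, their reads cannot be told apart.

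The end-processing genes differ among themselves. Mre11a, Rad50 and Nbn form the MRN complex that holds the broken ends. Rad50 ranged from 36.1 to 44.2 TPM in ovaries and from 12.6 to 106 in tumors, 8 of which lay below every ovary as deposited. After scaling, 6 of its tumors lay above every ovary and 3 below. Nbn ranged from 42.8 to 58.5 and from 21 to 73.4. Rbbp8, which starts resection with MRN, ranged from 44.6 to 54.0 and from 25.9 to 65.8. Mre11a stood at 21.3, 24.1 and 18.8 TPM in ovaries and at 20.9, 11.4, 14.7, 17.4, 23.5, 37.81, 23.4, 40.9, 42.3 and 47.5 in tumors. On this scale MP 2 to MP 4 were below every ovary and 4 tumors above, where after scaling all 10 were above. Of the 5 genes of this role, Mre11a and Exo1 passed after scaling.

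Of Rad51b, Rad51c, Rad51d, Xrcc2 and Xrcc3, which act together in strand exchange, Xrcc3 alone passed after scaling. It stood at 12.9, 10.8 and 12.1 TPM in ovaries and at 11.1, 3.66, 8.88, 10.8, 13.5, 24.7, 15.0, 27.7, 22.3 and 26.4 in tumors, and its 6 tumors above every ovary were MP 5 to MP 10. Rad51c ranged from 3.69 to 6.19 TPM in ovaries and from 0.616 to 7.13 in tumors, where it rested on as few as 9 reads. Rad51d ranged from 25.9 to 27.1 and from 6.15 to 44.4, Rad51b from 9.34 to 11.2 and from 6.56 to 22.6, and Xrcc2 from 9.22 to 13.4 and from 4.70 to 36.1. In the annealing and motor genes, Rad54l and Rad54b passed after scaling and Rad52, which anneals single strands, did not, although all 10 of its tumors then lay above every ovary. Rad54l ranged from 3.82 to 5.80 TPM in ovaries and from 3.20 to 30.8 in tumors, and Rad54b from 1.70 to 3.76 and from 1.68 to 16.3. Rad52 stood at 9.93, 9.34 and 10.1 TPM in ovaries and at 8.66, 3.82, 5.12, 10.9, 11.1, 12.7, 9.11, 12.4, 18.8 and 16.7 in tumors, with MP 1, 2, 3 and 7 below every ovary and the other 6 above. After scaling, Rad52 had the smallest SD between tumors of the members, 0.20 on the log2 scale, against a median of 0.585 over members and 0.755 over all genes tested. As deposited its SD was 0.631, against 0.375 for Fancl, the smallest there, and medians of 0.767 and 0.861.

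Of the damage kinases, Atm varied between tumors with an SD of 1.18 as deposited and 0.926 after scaling (log2), above the medians of the members and of all genes. Its place above all genes rests on MP tumor 10. Without that tumor the SD of Atm was 0.776 and 0.647, below the medians of all genes (0.834 and 0.738). It stayed above the medians of the members (0.713 and 0.568). For Atr the SD over 10 tumors was 0.666 and 0.497, both below the medians of the members. Chek1 and Chek2 had an SD of 0.768 and 0.595 as deposited and of 0.893 and 0.887 after scaling. Without MP tumor 10 these were 0.726 and 0.585 as deposited and 0.94 and 0.941 after scaling, so on scaled values both then varied more than Atm. Chek1, the replication checkpoint kinase, stood at 24.7, 34.8 and 6.24 TPM in the ovaries, the widest ratio of any member there (5.58), and from 8.16 to 51.2 in tumors. Atm, the kinase that answers double-strand breaks, ranged from 10.4 to 13.8 and from 5.96 to 118 TPM, and the highest value was in MP tumor 10. Atr ranged from 5.57 to 8.16 and from 2.56 to 15.7. Of the 4 kinases Chek2 alone passed after scaling.

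In the ovaries the members were also ordered. WT ovary 3 was the lowest of the 3 for 30 of 40 members (75%), where 48.2% of all genes tested have it lowest. The proliferation index, the mean log2(TPM + 1) of 15 mitotic genes that are no members, was 5.22, 5.70 and 4.73 in WT ovaries 1 to 3, and 26 members (65%) shared the order 3, 1, 2, against 25.9% of all genes.

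Of the Fanconi core genes and Fancm, Fancb and Fancf passed after scaling. Fancf, an adaptor of the core complex, stood at 13.3, 13.9 and 11.3 TPM in ovaries and at 15.7, 8.19, 8.57, 19, 19.6, 34.7, 24.4, 31.1, 25.8 and 21.3 in tumors. As deposited MP 2 and MP 3 were below every ovary and the other 8 above. Fancc and Fancl, the ubiquitin ligase subunit, had 9 of 10 tumors below every ovary as deposited, a pattern that 30.3% of all genes tested show. After scaling 5 and 6 tumors were below, and 4 and 3 above. Fancc ranged from 7.10 to 7.85 TPM in ovaries and from 1.72 to 10.2 in tumors, and Fancl from 11.4 to 12.7 and from 5.75 to 17.2. Fanca ranged from 2.00 to 3.75 and from 0.370 to 8.37 TPM, Fancg from 9.61 to 13.3 and from 2.75 to 23.5, and Fancm, a translocase, from 7.39 to 8.31 and from 2.88 to 10.5. Fance stood at 23.2, 24.3 and 24.7 TPM in ovaries and at 24.7, 8.65, 18.8, 22, 25.6, 43.0, 53.7, 35.7, 34.0 and 32.5 in tumors, and MP 5 to MP 10 were above every ovary. Fancd2 and Fanci, the pair the core complex ubiquitinates, both passed after scaling, and Fancd2 was above every ovary in 9 tumors as deposited, which 6.67% of genes show for higher values. Fancd2 ranged from 3.50 to 7.48 TPM in ovaries and from 4.33 to 38.3 in tumors, and Fanci from 3.41 to 6.79 and from 3.37 to 25.4.

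Among the helicases, Blm, Brip1 and Recql4 passed after scaling and Wrn did not. Blm, which dissolves joint molecules, stood at 7.58, 9.30 and 5.72 TPM in ovaries and at 11.3, 6.34, 9.14, 6.13, 12.4, 17.6, 14.9, 19.1, 16.9 and 26.1 in tumors, and all but MP 2 to MP 4 were above every ovary. Recql4 stood at 4.0, 4.04 and 3.22 TPM in ovaries and at 8.69, 1.28, 2.94, 2.63, 15.1, 23.7, 16, 32.1, 16.6 and 30.0 in tumors, where MP 2 to MP 4 were below every ovary and the other 7 above. Brip1 ranged from 3.10 to 6.10 and from 3.69 to 19.5. Wrn ranged from 14.8 to 17.1 TPM in ovaries and from 2.77 to 18.1 in tumors, with 8 tumors below every ovary as deposited and 7 after scaling. In the resolution group, Eme1 passed after scaling. It stood at 5.24, 7.39 and 3.45 TPM in ovaries and at 16.5, 2.87, 3.72, 4.77, 17.7, 27.6, 15.8, 28.2, 9.13 and 20.7 in tumors, with MP 2 to MP 4 again the tumors not above every ovary. Slx4, the scaffold of the nucleases, had the widest ratio between tumors by deposited TPM, at 0.551 in MP tumor 3 and 28.4 in MP tumor 9, and lay between 11.4 and 12.8 in ovaries. Parp1 passed after scaling and Polq did not. Parp1 stood at 129, 134 and 111 TPM in ovaries and at 109, 69.2, 231, 169, 286, 454, 248, 309, 243 and 546 in tumors, and all but MP 1 and MP 2 were above every ovary. Polq ranged from 1.46 to 2.75 and from 0.828 to 21.3.

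A ratio of 2 genes within a library is free of the scaling. Partner genes were compared in 12 pairs by an exact permutation test, 2-sided, over the 286 ways to choose 3 of 13 libraries, for which the smallest possible P is 0.0035, and none passed after Benjamini-Hochberg adjustment over the 12 pairs, while 5 had an unadjusted P under 0.05. The lowest adjusted value, 0.0524, was shared by 4 pairs. Fancd2 over Fanci was higher in all 10 tumors than in every ovary, by 0.54 (log2, exact P = 0.014). Brca2 over Palb2 was -0.03 ± 0.69 in tumors (SD, n = 10) and 1.22 ± 0.10 in ovaries (SD, n = 3), a difference of -1.25 with 9 of 10 tumors below every ovary (exact P = 0.014). Rad51c over Xrcc3 differed by -1.24, with 9 of 10 tumors below every ovary (exact P = 0.00699), and Mus81 over Eme1 by -2.19, with 8 below (exact P = 0.0175). Brca1 over Bard1 differed by -0.16 (exact P = 0.587). Leaving out MP tumor 4, 5 or 9 let 3, 2 and 3 pairs pass. How often pairs of other genes separate the tumors from the ovaries was not tested, so these differences cannot be called particular to partner genes.

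**Figure D5:**
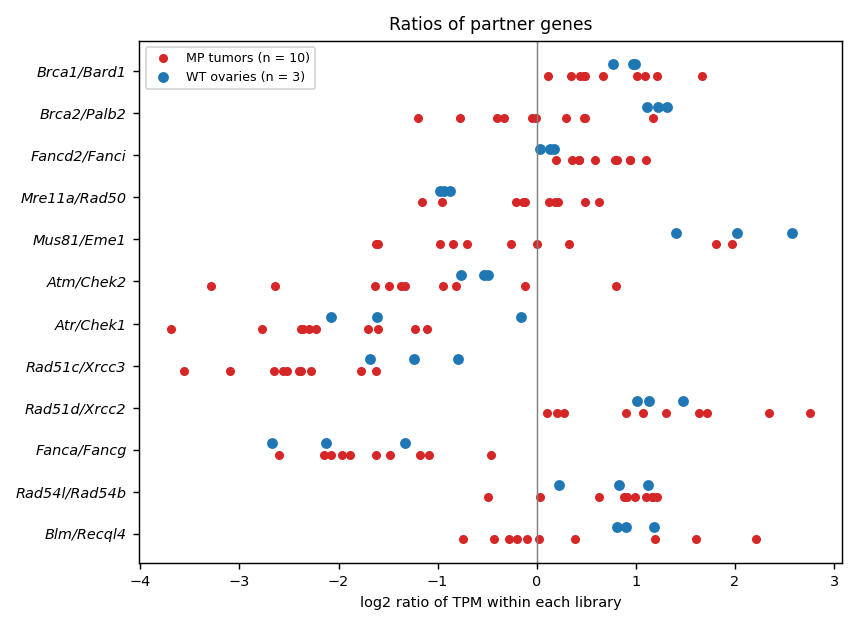
log2 ratio of TPM of 12 pairs of partner genes within each library, in WT ovaries (blue, n = 3) and MP tumors (red, n = 10). The Fancd2/Fanci tumors all lie right of the ovaries, while most tumors of Brca2/Palb2, Rad51c/Xrcc3 and Mus81/Eme1 lie left of them.

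Tumors were compared by the same proliferation index on scaled values, which ran from 5.48 in MP tumor 4 to 7.19 in MP tumor 1. The member and the index share each library's scaling. Across the 10 tumors, 17 members had a permutation P under 0.05 for Pearson's r, unadjusted and over 40 members, 16 with positive r. By limma's unadjusted P under 0.05, 15 members (37.5%) passed, against 22.6% of all genes. Chek2 had r = 0.894 (permutation P = 9e-05) and Spearman's rho = 0.952 (permutation P = 7e-05), and Blm had r = 0.920 and rho = 0.794 (permutation P = 0.0008 and 0.00918). With limma over all genes tested, 2 members passed, Chek1 (adjusted P = 0.0442) and Chek2 (adjusted P = 0.0482), against 0.898% of all genes. Without the tumors farthest from the median index, MP 4 and MP 5, r was 0.770 for Chek2 and 0.619 for Blm, 5 members had an exact permutation P under 0.05, and limma called no gene, with 29.4% of all genes (5074) and 12.5% of members (5) at an unadjusted P under 0.05. Of the 17 members, 3 stayed under 0.05 without these tumors, Chek2, Fancb (r = 0.812, exact permutation P = 0.0111) and Wrn (r = -0.824, exact permutation P = 0.0128). The other 14 did not. Among these r fell for Fancd2 from 0.719 to -0.043, while for Rbbp8 it was 0.705 with 10 tumors and 0.695 with 8 (exact permutation P = 0.052), and for Fance 0.686 and 0.628 (exact permutation P = 0.0928), so the loss of a call came with little change of r in some members. By IGO number the index stood at 6.82 to 7.19 in MP tumors 1 to 3, 5.48 to 6.81 in 4 to 6 and 6.29 to 6.78 in 7 to 10. Compared only within these numbers (exact permutation over 864 orders, smallest possible P = 0.00116), 6 members had an unadjusted P under 0.05, all with positive r, namely Eme1, Rad51c, Recql4, Chek2, Exo1 and Fancb. Of the 17 members, 3 were among them, with r = 0.876 for Chek2 (exact permutation P = 0.0289), 0.877 for Exo1 (exact permutation P = 0.0394) and 0.782 for Fancb (exact permutation P = 0.0486). With the IGO number as covariate limma called no gene, and 22.5% of members (9) had an unadjusted P under 0.05, against 11.6% of all genes (2001). On scaled values Chek2 and Fancb alone of the 17 members stayed under 0.05 both without MP tumors 4 and 5 and within the IGO numbers. The relation depends on the scale. On deposited TPM the index was lowest in MP tumor 2, at 5.20, and 32 members had a permutation P under 0.05. There r was 0.702 for Chek2 (permutation P = 0.0211), 0.296 for Fancb (permutation P = 0.416) and 0.533 for Wrn (permutation P = 0.114), the last with the opposite sign. By limma's unadjusted P, 72.5% of members (29) passed on that scale, against 27.5% of all genes.

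Other genes of the pathway were read beside the members. In a list of 48 further recombination and Fanconi genes, 47 were tested and 2 rose as deposited, Rad51ap1 (2.05) and Ube2t (1.98), while Swsap1 passed as lower. After scaling, 12 rose and 1 fell. Of all genes tested, 2.51% passed as higher as deposited and 7.39% after scaling, and these shares apply to each list here. Of 10 genes of nonhomologous end joining, none passed as higher and 2 as lower as deposited, Paxx (-1.59) and Xrcc4 (-1.25), against 14.3% of all genes as lower. After scaling neither passed, and Xrcc6 passed as higher. The proliferation list had 8 of 15 higher as deposited and 13 after scaling, and the S-phase list 7 and 14 of 17. Their part in the members' values was not tested.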

How the data were processed

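RNA of 3 WT ovaries and 10 MP tumors was sequenced as single-end reads of 76 bp. The authors deposited 1 table of TPM per gene and library. The labels name both an alignment to a human build with HTSeq and RPKM, and, in the submitters' processing notes, mm10 with STAR 2.5.3a and featureCounts 1.6.3. The deposited TPM table holds mouse genes, 96% with the coordinates of GENCODE release 21, so it was read as mouse TPM. TPM times gene length fell on whole reads within 0.001, which gave the depth. No column belonged to another sample.

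A gene was tested (17277 were) when 3 or more libraries had 1 TPM or more, using limma 3.58.1 (trend, robust) in R 4.3.3 on log2(TPM + 1), which understates the change of low genes, and P values were adjusted by Benjamini-Hochberg over all of them. Fold changes on that scale were also computed after median-of-ratios scaling, within the IGO number of the WT ovaries and under the alternatives of the closing section. Partner ratios used a pseudocount of 0.1. The planned adjustment of the proliferation relation over the members alone was replaced by limma over all genes. Simulated data with the 17277 genes and the depths of these libraries recovered 51% of genes changed 4-fold and 2% of genes changed 2.5-fold. The simulated reads were independent negative binomial draws with a chosen spread. They held no difference between IGO numbers and no shift in composition such as that of MP tumor 2, so recovery in the real data can differ.

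The members and gene lists were chosen with earlier results of these data known. Values in every library are given for the BRCA group, for the member past the threshold as deposited, Fancb, and for the 14 members whose groups do not overlap on at least 1 scale. The other members have their range. The labels do not say more of the replicates than that they are separate samples, so P values measure the spread between these samples. The replicate numbers were not read as pairing ovaries with tumors. Same-numbered libraries did not deviate together (correlations -0.0963, -0.0214 and 0.00118), although so few numbers in different tissues cannot exclude a pairing.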

Additional observations from a re-analysis of the deposited data

Results flagged for a closer look

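In 7 of the 40 members 1 tumor stood apart from the other 9 on deposited TPM, its gap to the next tumor, over the whole range, being above Dixon's 95% critical value for 10 samples. Chance flags about 1 in 20 such groups, that is 2 of 40, but the same rule flags 23.8% of all genes tested, against 17.5% of the members. Of the 7, 6 were in MP tumor 10, at 36.1 TPM for Xrcc2, 106 for Rad50, 118 for Atm, 25.4 for Fanci, 19.5 for Brip1 and 21.3 for Polq, against 14.2, 45.7, 39.4, 13.6, 11.3 and 11.1 in the next tumor. The other was Fancl in MP tumor 1, at 17.2 TPM against 9.15. After median-of-ratios scaling 2 members (5%) were flagged, against 23% of all genes. MP tumor 10 was also the tumor with the highest Trp53 RNA and the highest value of 23 members as deposited (57.5%, against 24.2% of all genes) and 10 after scaling (25%, against 13.9%), and the part of its composition in these values was not tested.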

How the results depend on the processing

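The count of members higher in tumors depended on the scaling. It was 1 as deposited (2.51% of all genes), 18 after median-of-ratios scaling (7.39%), 21 after quantile normalization (11%), 21 with the length trend removed (10.3%) and 11 with limma-voom on recovered reads (10.9%). It was 3 within the ovaries' IGO number (6.44%), 2 with the IGO number as covariate (5.17%), 3 with the replicate block (6.29%) and 2 without limma's trend and robust options (2.58%). Chosen after seeing the data, scaling without MP tumor 2 gave 17, without MP tumor 10 gave 16 and scaling within the ovaries' IGO number gave 25. Members lower numbered 10 within the ovaries' IGO number (57.3% of all genes), 6 with the covariate (49.4%), 10 with the block (56.7%) and 2 scaled within the ovaries' IGO number (33%). Leaving out 1 library gave 0 to 3 members higher, against 0.544% to 3.68% of all genes. The count was 0 in the fits without a WT ovary, where 0.544% to 0.886% of all genes passed. Leaving out 1 library also gave 0 to 3 partner pairs and 12 to 20 members related to the proliferation index. Members related to the index numbered 32 on deposited TPM, 5 without MP tumors 4 and 5 and, chosen after seeing the data, 6 within the IGO numbers.

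Brca1 changed by -0.0948 and Bard1 by -0.125 within the ovaries' IGO number, with the covariate and with the block. Brca2 changed by 0.285, 0.633 and 0.790 under median-of-ratios scaling, quantile normalization and the length trend, 0.212 and 0.236 scaled without MP tumor 2 and MP tumor 10, and 0.134 scaled within the ovaries' IGO number. It changed by -1.14 within the ovaries' IGO number, with the covariate and with the block, where limma adjusted P was 0.0056, 0.0682 and 0.00792. Mus81 changed by 0.0672 scaled within the ovaries' IGO number, and Brca1 over Bard1 by 0.0512 within the ovaries' IGO number. The cause of these reversals was not tested. With 3 WT ovaries, and tumors as shallow as 3892690 reads, genes such as Rad51c with 9 reads carry large counting error.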
